A study of Mus musculus with 14 samples.

Results

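Bcl6, Bach2, Irf8, Mef2b, Mef2c, Mybl1 and Myc are transcription factor genes that act in germinal center B cells, the antigen-activated cells that divide and mutate their receptors in the follicles of spleen and lymph nodes. The 7 genes were taken from the 18193 genes of the array table by their annotated symbol. They are covered by 16 probe sets that carry 1 symbol, and by 1 more that Mef2b shares with the neighbouring gene Borcs8. A probe set is the group of short oligonucleotides that measures 1 transcript on the array. Each gene was read from its brightest probe set, and the other 9 served as a check.

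Splenic B cell subsets of male C57Bl/Ka mice were sorted by flow cytometry for the study, and amplified, biotin-labelled RNA was hybridised to 14 Affymetrix arrays. Plasma cells (4 arrays) came at day 7 after an intraperitoneal immunization with the hapten-protein conjugate NP-CGG in alum, from mice aged 5 to 9 weeks. Memory cells (4 arrays) came 10 to 12 weeks after it, from mice aged 14 to 18 weeks. Germinal center cells (3 arrays) came at day 14, from mice aged 6 to 10 weeks. Naive cells (3 arrays) came from unimmunized mice aged 4 to 8 weeks. The dose was 100 µg, but the label of plasma replicate 1 gives none. Cells of the immunized mice bound NP and carried the lambda light chain. Plasma cells were gated as syndecan-1 positive with low B220, memory cells as CD38 high without IgM, IgD or PNA binding, germinal center cells as PNA binding with low CD38, and naive cells as lambda positive cells with CD23 and IgD. All gates excluded T cell, myeloid and erythroid surface markers. The subsets therefore differ in immunization, time and age together, and these cannot be told apart. Whether the replicates of a subset are separate animals is not stated in the labels. The p-values therefore reflect array-to-array spread that may be technical.

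As background, Bcl6 is the repressor without which germinal centers do not form, and it holds back genes of plasma cell differentiation, cell cycle arrest and the DNA damage response. Bach2 is a repressor that pairs with small Maf proteins and, like Bcl6, represses Prdm1, which encodes Blimp-1, the factor that in turn shuts down the B cell program in plasma cells. Irf8 binds DNA with PU.1 and other partners and promotes Bcl6 expression, Mef2b and Mef2c are MADS box activators of which Mef2b acts on Bcl6, Mybl1 (A-Myb) is an activator of the Myb family, and Myc drives growth and cell cycle entry and pairs with Max.

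Each labelled subset had the highest summed intensity of its own markers, though some markers were shared between subsets. Summed intensity of 6 plasma cell markers was 26600 to 36400 on plasma arrays and at most 5370 on any other. The sum of 5 measured germinal center markers was 8470 to 12000 on germinal center arrays, against 83.3 to 115 on naive arrays. That sum was also 5620 to 6680 on plasma arrays, where Rgs13 and Gcsam lay below background on every array. S1pr2 averaged 97.3 there, so other markers of the list made up most of that sum. Such a sum mostly follows the brightest markers of its list. For 4 measured naive markers the sum was 4140 to 5030 on naive arrays and 1700 to 3090 on memory arrays. All 4 were above background on every memory array. For 5 measured memory markers it was 898 to 1380 on memory arrays, against 77.4 to 81.5 on naive and 202 to 367 on germinal center arrays. Of 10 measured T cell markers, 6 were above background on every plasma array, 5 on every memory array, 5 on every germinal center array and 4 on every naive array. Their sum was 239 to 269 on plasma, 186 to 222 on memory, 206 to 273 on germinal center and 188 to 206 on naive arrays. Thy1 averaged 29.1 on plasma arrays and 9.3 to 10.8 in the other subsets, whereas Cd3g and Cd8b1 were above background on no array. Of 12 myeloid markers, 5, 3, 2 and 3 were above background on every array in the same order of subsets, and the sum was 161 to 323, 150 to 162, 162 to 176 and 167 to 192. Csf1r averaged 71.9 on plasma arrays and 28 to 42.6 in the other subsets, Lyz2 26.8 and 10.7 to 14.6, and Cd68 20.5 and 8.1 to 13. Adgre1 was instead highest on naive arrays, at 51.2, against 27.9 on plasma, 26.5 on memory and 19.9 on germinal center arrays. Fcgr1 was 14.4 to 17.3 in all subsets, and Itgam, Cd14, S100a8 and S100a9 were above background on no array. Of 7 dendritic cell markers, 3, 2, 4 and 3 were above background on every array, and the sum was 281 to 335 on germinal center arrays, against 95.4 to 148 on the others. That difference was mostly Flt3, at 213.2 on germinal center arrays and 17.3 to 35.5 in the other subsets, while Xcr1 was above background on no array. The part of other cells in the results was not tested.

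Background is the intensity, on each array, of the brightest among 27 unspiked bacterial control probe sets. It was 11 to 16.1. All values are deposited intensities on a linear scale. A level of one probe set is not set against that of another, because probes differ in affinity. Fold changes are differences of mean log2 intensity with their standard errors, from limma fitted on all 18193 genes. A gene counts as called at a Benjamini-Hochberg adjusted p under 0.05. In bulk samples such as these, fewer cells that express a gene and less RNA per cell cannot be told apart. Among 6116 genes with a mean log2 intensity of at least 6, the median difference was -0.20 for germinal center over naive, -0.25 for plasma over naive, -0.20 for memory over naive, -0.10 for plasma over germinal center, 0.05 for memory over germinal center and -0.08 for plasma over memory cells. A difference of that size in a bright gene is within this shift.

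On germinal center arrays the ratio of the 3 prime to the middle beta-actin probe set, a sign of RNA degradation or short amplified product, was 10.1, 17.6 and 6.11. It was 5.47 to 6.91 on plasma arrays, 4.15 to 5.33 on memory arrays and 4.39 to 5.30 on naive arrays. By this ratio germinal center arrays 1 and 2 stood apart from the other 12. The same ratio for Gapdh did not set them apart, with 9.09, 10.9 and 8.23 on germinal center arrays, against 5.45 to 8.41 on plasma, 11 to 13 on memory and 9.44 to 12 on naive arrays. Where the actin ratio was added to the fit, it partly overlapped with the germinal center subset. A call lost in that fit can therefore reflect lower precision as well as a smaller difference.

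All 7 genes were above background on every germinal center array, 6 of 7 on every memory array, 5 or 6 on naive arrays and 4 on plasma arrays. Of all genes, 56.8% to 58.8% were above it on germinal center and 54% to 66.9% on memory arrays. The share was 52.7% to 64.6% on naive and 53.3% to 63.6% on plasma arrays, so the plasma count was near that of all genes. Relative to germinal center cells, plasma cells had lower levels of 7 of 7 members, beside 12.6% of all genes called lower in that comparison. Relative to naive cells, plasma cells had 5 members lower and 1 higher (30.3% of all genes called in either direction), and relative to memory cells also 5 lower and 1 higher (33.2%). Memory cells had 4 lower and 1 higher than germinal center cells (22.4%) and 0 higher and 1 lower than naive cells (2.31% of all genes called higher, 3.26% lower and 5.57% in either direction), with 0 higher and 2 lower at an unadjusted p under 0.05 in limma. Germinal center cells had 3 members higher and 0 lower than naive cells by limma (8.37% of all genes called higher, 19.5% in either direction). At an unadjusted p under 0.05, limma gave 4 members higher, Bach2 in addition, and 1 lower, Irf8. The median log2 fold change of the 7 members was -2.80 for plasma over germinal center cells with members below background at their bound, beside -0.02 over all genes, and 0.85 for germinal center over naive cells, beside 0.06. The comparisons share arrays, so these counts are not independent of each other.

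**Figure D1:**
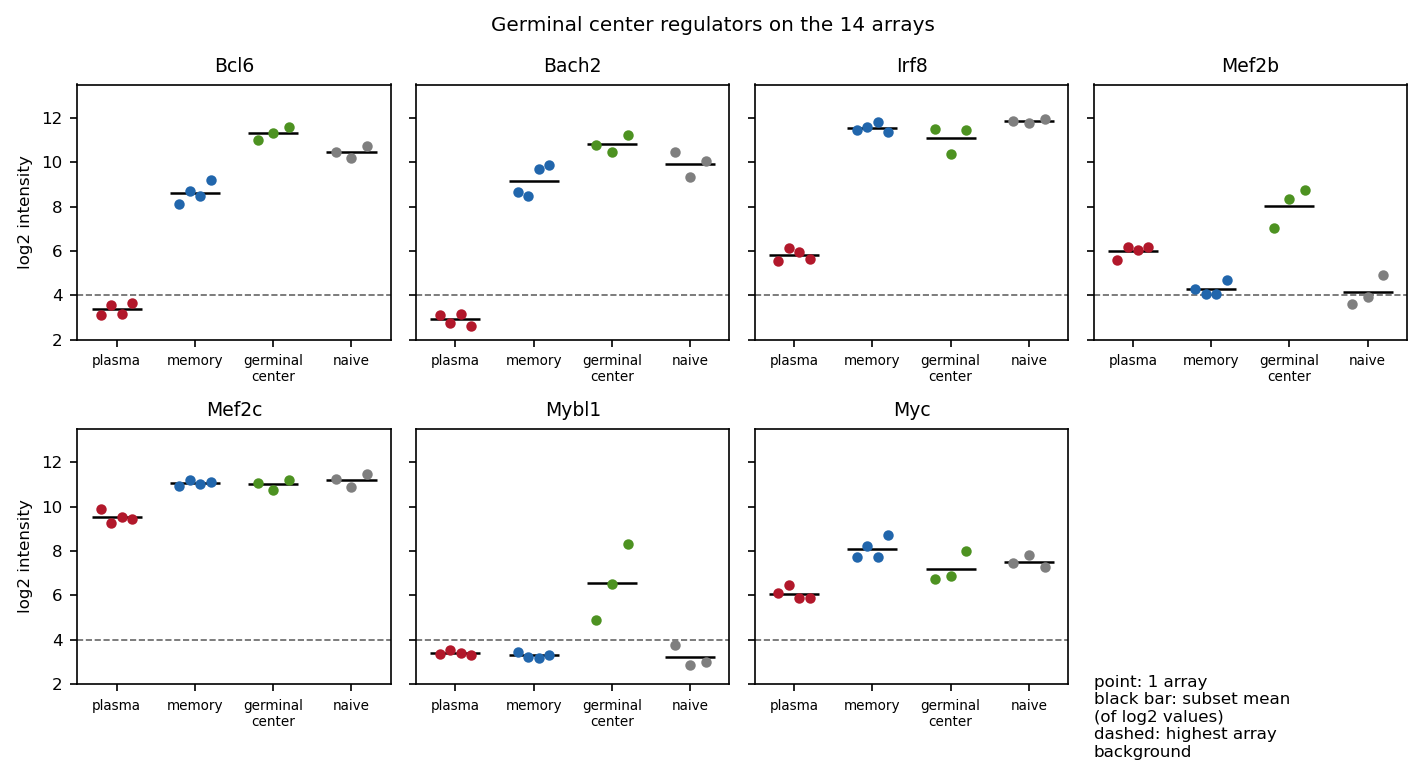
Log2 intensity of the brightest probe set of each of the 7 genes (vertical axis) on 4 plasma, 4 memory, 3 germinal center and 3 naive arrays (1 point per array, bar at the subset mean, dashed line at the highest array background). Bcl6 and Bach2 lie below background on all 4 plasma arrays, Mef2b and Mybl1 are highest on the 3 germinal center arrays, and Mef2c and Myc span the smallest range.

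Of the repressors, Bcl6 (probe set 1421818_at) had intensities of 8.69, 11.9, 9.03 and 12.7 on plasma arrays and 274, 413, 356 and 583 on memory arrays. It had 2081, 2553 and 3061 on germinal center arrays and 1398, 1174 and 1709 on naive arrays. The 4 subsets did not overlap, in the order germinal center, naive, memory and plasma, and no plasma array was above background. In plasma cells Bcl6 was at least 185-fold lower than in germinal center cells (adjusted p = 2.75e-11), at least 103-fold lower than in naive cells (5.17e-11) and at least 28.5-fold lower than in memory cells (2.9e-10). These bounds set the brighter mean against the array background, or against the dim signal itself where that was higher.

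Memory cells had less Bcl6 than germinal center cells by a log2 fold change of -2.69 ± 0.24 (n = 4 and 3, adjusted p = 1.36e-06) and less than naive cells by -1.85 ± 0.24 (n = 4 and 3, adjusted p = 0.00035). Bcl6 was the 1 member called between memory and naive cells. The rise of Bcl6 in germinal center over naive cells was small, 0.85 ± 0.26 (n = 3 and 3, adjusted p = 0.031), although each germinal center array was above each naive array. This call was lost with arrays centred on their median (0.71, adjusted p = 0.09), with array weights (adjusted p = 0.0756), with the actin ratio in the fit (1.03, adjusted p = 0.17), and without germinal center replicate 2 or 3 or naive replicate 1 or 2 (0.71 to 0.84, adjusted p from 0.0715 to 0.108). The second Bcl6 probe set, 1450381_a_at, was above background on 1 of 14 arrays and gave no level to compare. Averaged with it, memory over naive cells was -0.93 and still called.

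Bach2 (1436515_at) had 9, 7, 9 and 6 on plasma arrays, all below background, and 398, 357, 839 and 932 on memory arrays. It had 1760, 1418 and 2370 on germinal center arrays and 1388, 649 and 1054 on naive arrays. Memory replicates 3 and 4 lay above naive replicate 2, so memory and naive arrays overlapped, whereas all germinal center arrays were above all others. In plasma cells Bach2 was at least 132-fold lower than in germinal center cells (adjusted p = 8.01e-10), at least 71.6-fold lower than in naive cells (1.79e-09) and at least 42-fold lower than in memory cells (2.15e-09).

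Both other Bach2 probe sets, tested in a fit across all 45037 probe sets that are not controls, were also lower in plasma cells. 1437667_a_at was below background on all 4 plasma arrays and at least 41.7-fold lower than in germinal center cells (adjusted p = 5.39e-05). 1445460_at was above background on every array and had log2 fold changes of -2.21 ± 0.41 against germinal center cells (adjusted p = 0.0014), -2.27 ± 0.41 against naive cells (0.000904) and -1.54 ± 0.38 against memory cells (0.00647). The loss was thus much smaller by the dimmest of the 3 probe sets.

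The probe sets of Bach2 did not give the same order for the other subsets. By the brightest, memory cells had less Bach2 than germinal center cells (-1.65 ± 0.35, adjusted p = 0.00299), but 1437667_a_at gave 0.36 ± 0.72 (adjusted p = 0.786) and 1445460_at gave -0.67 ± 0.41 (adjusted p = 0.304). With the mean over the 3 probe sets the difference was -0.65 (adjusted p = 0.293). On germinal center arrays 1437667_a_at read 112, 834 and 2012, against 1553, 435 and 922 on naive arrays, and array 1 held the lowest value. Germinal center over naive cells was not called by the brightest probe set (0.88 ± 0.37, adjusted p = 0.12). It passed with arrays centred on bright genes (1.06, adjusted p = 0.0261) and was 0.08 (adjusted p = 0.924) as the mean over probe sets.

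Bcl6 and Bach2 were each other's nearest gene. Likeness was measured as the root mean square difference of log2 intensities over the 14 arrays, after centring each gene on its own mean, among 10589 genes above background on all arrays of at least 1 subset. Bach2 differed from Bcl6 by 0.64, followed by Lrmp (0.73), Rgs2 (0.96), Cd83 (1.05) and Slamf1 (1.06). For Bach2 the next after Bcl6 were Lrmp (0.69), Srpk3 (0.93), Spib (0.95) and Nxpe2 (0.96). Without the plasma arrays 0 of these 5 genes remained among the 5 nearest of Bcl6, and likewise 0 for Bach2, so the likeness rests on the plasma arrays, where both genes were below background on all 4. The 14 points share their arrays and normalization, and these distances are descriptions.

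Irf8 (1416714_at), the gene with the third large loss, had 47, 70, 62 and 50 on plasma arrays and 2806, 3046, 3579 and 2588 on memory arrays. It had 2896, 1309 and 2798 on germinal center arrays and 3752, 3451 and 3900 on naive arrays. Unlike Bcl6 and Bach2 it stayed above background on all 4 plasma arrays. The log2 fold change of plasma cells was -5.28 ± 0.24 over germinal center (adjusted p = 1.22e-09), -6.03 ± 0.24 over naive (2.34e-10) and -5.72 ± 0.22 over memory cells (1.61e-10). The second probe set, 1448452_at, also gave lower levels in plasma cells, with -3.54 ± 0.29, -3.99 ± 0.29 and -3.85 ± 0.27 for the same 3 comparisons (adjusted p at most 9.09e-07).

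Among the subsets other than plasma, Irf8 differed far less, and no difference was called in the fit on all genes. Germinal center over naive was -0.75 ± 0.26 (adjusted p = 0.0572), with all 3 germinal center arrays below all naive arrays. The lowest value was 1309 on array 2, and with the actin ratio in the fit the difference was -0.08 (adjusted p = 0.956). By the second probe set, 1448452_at, array 1 was lowest, with 182, 432 and 452 on germinal center arrays, against 439, 509 and 400 on naive arrays. Its groups overlapped, and its difference was -0.44 ± 0.31 (adjusted p = 0.407). The difference of the brightest probe set, or the mean where named, passed in other settings, with adjusted p = 0.0457 with arrays centred on their median, 0.0419 with only genes above background tested, 0.0321 with the mean over probe sets, and 0.026 and 0.0312 without germinal center replicate 1 or 3. Memory over naive was -0.31 ± 0.24 (adjusted p = 0.6) and memory over germinal center 0.44 ± 0.24 (adjusted p = 0.23), both with overlapping arrays. The 5 genes nearest to Irf8 were Rasgrp1 (0.29), Ifit1bl1 (0.37), Btla (0.40), Evl (0.41) and Cr2 (0.45), and 1 of these 5 remained without the plasma arrays.

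Because Bcl6, Bach2 and Irf8 fell together in plasma cells, their promoters are shown. They are RefSeq sequences of build GRCm38.p6, the 250 bases before each annotated start, printed 5′ to 3′ on the strand of the gene. Capitals mark every match to TTCNNNGAA, a palindrome of the kind bound by STAT factors and, in a longer form, by Bcl6. It reads the same on both strands. A second annotated start of Irf8 held no match to this or to any other motif searched and is not printed.
Bcl6 start 1 (chr16:23981284-23981533, minus strand): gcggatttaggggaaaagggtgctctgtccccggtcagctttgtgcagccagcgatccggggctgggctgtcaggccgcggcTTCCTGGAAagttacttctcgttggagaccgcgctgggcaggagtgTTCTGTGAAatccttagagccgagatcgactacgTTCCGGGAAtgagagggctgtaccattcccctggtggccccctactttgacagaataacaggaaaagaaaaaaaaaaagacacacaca
Bcl6 start 2 (chr16:23988853-23989102, minus strand): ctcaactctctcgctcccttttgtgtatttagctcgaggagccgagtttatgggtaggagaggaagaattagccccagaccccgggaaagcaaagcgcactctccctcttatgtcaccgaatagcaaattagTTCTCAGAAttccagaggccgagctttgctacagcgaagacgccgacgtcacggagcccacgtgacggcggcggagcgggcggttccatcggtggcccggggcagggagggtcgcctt
Bach2 start 1 (chr4:32417185-32417434, plus strand): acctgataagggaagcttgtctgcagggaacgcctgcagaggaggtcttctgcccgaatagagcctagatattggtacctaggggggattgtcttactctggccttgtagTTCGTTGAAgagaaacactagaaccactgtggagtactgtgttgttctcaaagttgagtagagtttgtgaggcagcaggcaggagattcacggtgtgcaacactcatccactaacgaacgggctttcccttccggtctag
Irf8 start 1 (chr8:120736108-120736357, plus strand): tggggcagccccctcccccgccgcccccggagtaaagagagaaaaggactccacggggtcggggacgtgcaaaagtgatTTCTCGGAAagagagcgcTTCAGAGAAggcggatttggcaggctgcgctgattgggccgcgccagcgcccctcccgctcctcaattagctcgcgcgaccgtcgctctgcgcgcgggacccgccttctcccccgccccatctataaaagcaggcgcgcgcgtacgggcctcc

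Of the 7 genes, 5 had entries in the promoter table, with 9 windows of 300 bases (250 before to 50 after the start). TTCNNNGAA occurred in 5 of these 9 windows, while 8.3% of all 32851 windows held it. Of the motifs searched, it was the one found in the most of these windows. The windows belonged to 4 of the 5 genes (Bcl6, Bach2, Irf8 and Mef2c), for which no share by gene was counted. Bcl6 start 1 held 3 matches, Irf8 start 1 held 2, and the other shown windows 1 each. The Blimp-1 core GAAAGT, searched on both strands, occurred in Bcl6 start 1, where it overlaps the first palindrome, and in 1 window of Mef2c (14.3% of all windows). The Ets and Irf composite, GGAA followed by GAAA after 2 free bases, occurred in Bcl6 start 1 and in Bach2 (2.72% of all windows), and the Myc and Max E-box CACGTG in Bcl6 start 2 (7.15%). A short form of the Mef2 site, CTA and TAG with 4 free bases between them (3.69%), TGACTCA, the core bound by Bach and AP-1 factors (5.2%), and an interferon response form, a pair of GAAA with 2 free bases between them (3.44%), were in none of the 9 windows. All were searched on both strands. A match describes letters and not occupancy.

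Mef2b and Mybl1 were the members with the largest rise in germinal center cells. Mef2b (1421541_a_at) had 48.2, 73.1, 64.7 and 72.6 on plasma arrays and 19.6, 16.5, 16.9 and 25.6 on memory arrays. It had 132, 320 and 432 on germinal center arrays and 12.2, 15.1 and 30.1 on naive arrays, where 2 of 3 arrays were above background. Germinal center arrays were highest and plasma arrays second, with no overlap, whereas memory and naive arrays overlapped near background.

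Mef2b was higher in germinal center than in naive cells by 3.89 ± 0.39 (adjusted p = 5.39e-06) and lower in memory than in germinal center cells by -3.77 ± 0.37 (3.68e-06). Plasma cells kept an intermediate level: it was -2.05 ± 0.37 against germinal center (0.000721), 1.85 ± 0.37 against naive (0.00129) and 1.72 ± 0.34 against memory cells (0.00106). Memory over naive was 0.13 ± 0.37 (adjusted p = 0.925). Mef2b was thus the 1 member that was higher in plasma than in naive and in memory cells, while Bcl6 was below background in plasma cells.

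The probe set shared with Borcs8 (1429079_a_at) was higher in plasma than in naive cells (0.89 ± 0.22, adjusted p = 0.00874) and than in memory cells (0.90 ± 0.20, adjusted p = 0.00393). Germinal center over naive was 0.61 ± 0.23 for it (adjusted p = 0.109), with 19.9, 27.7 and 33.6 on germinal center arrays against 24.6, 15.8 and 13.4 on naive arrays. Signals of the 2 genes cannot be separated in this probe set. The 5 genes nearest to Mef2b were Pole (0.45), Fancd2 (0.51), Pola1 (0.52), Incenp (0.53) and S1pr2 (0.55), and 1 of these 5 remained without the plasma arrays.

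Mybl1 (1456951_at) had 29.9, 91.8 and 317 on germinal center arrays and was below background on each of the other 11 arrays. Its levels there were 9.95 to 11.5 on plasma, 9.04 to 10.8 on memory and 7.16 to 13.7 on naive arrays. The second probe set, 1450481_at, had 29.2, 17.1 and 82.1 on germinal center arrays and was also below background on the other 11. By brightest probe sets, the 3 germinal center arrays varied more for Mybl1 than for any other member (SD 1.70 in log2).

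Germinal center cells had at least 7.36-fold more Mybl1 than naive cells (adjusted p = 0.000567). Plasma cells had at least 6.96-fold less than germinal center cells (adjusted p = 0.000369), and memory cells at least 7.75-fold less (0.000372). These sizes depend on single germinal center arrays: without replicate 3 the 3 bounds were 4.04-fold, 3.82-fold and 4.25-fold, and without replicate 1 they were 13.2-fold, 12.4-fold and 13.9-fold, with every call kept. The second probe set gave at least 2.65-fold, 2.51-fold and 2.8-fold for the same 3 comparisons. Plasma, memory and naive cells could not be told apart for Mybl1, since all were below background. The gene nearest to Mybl1 was Adhfe1 (0.53), which lies nearby on the same chromosome and had 44.9 to 80.4 on germinal center arrays and was below background on the other 11. Celsr1 (0.58), Hemgn (0.63), Sh3bgrl2 (0.67) and Cryz (0.69) followed. With Mybl1 and Adhfe1 below background on 11 of 14 arrays, this order rests on the 3 germinal center arrays.

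By brightest probe sets, germinal center array 3, with the lowest actin ratio of the 3, was highest for 6 of the 7 members. These were Bcl6, Bach2, Mef2b, Mef2c, Mybl1 and Myc, while array 1 was highest for Irf8. Array 2, with the highest ratio, was lowest for Bach2, Irf8 and Mef2c, and array 1 for Bcl6, Mef2b, Mybl1 and Myc. How many of all genes were highest on array 3 was not counted, so this cannot be called a trait of the members.

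Mef2c (1424852_at) had 941, 604, 745 and 702 on plasma arrays and 1946, 2363, 2090 and 2194 on memory arrays. It had 2118, 1702 and 2375 on germinal center arrays and 2412, 1853 and 2864 on naive arrays. Plasma arrays were lower than all others, which overlapped. The log2 fold change of plasma cells was -1.47 ± 0.18 over germinal center (adjusted p = 2.27e-05), -1.66 ± 0.18 over naive (5.18e-06) and -1.54 ± 0.17 over memory cells (4.38e-06). The other 3 comparisons lay between -0.19 and 0.07 with no call.

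The 5 probe sets of Mef2c disagreed on germinal center cells. By the brightest, germinal center over naive was -0.19 ± 0.19 (adjusted p = 0.578 across all probe sets), while the other 4 were called lower: 1421027_a_at by -2.0 ± 0.40 (adjusted p = 0.00382), 1451506_at by -1.74 ± 0.29 (0.00113), 1451507_at by -1.07 ± 0.21 (0.00359) and 1421028_a_at by -0.96 ± 0.28 (0.0348). 1421027_a_at had 1097, 969, 1106 and 1146 on plasma arrays, 1753, 1630, 1965 and 1910 on memory arrays, 288, 1204 and 1223 on germinal center arrays, and 2643, 3477 and 2978 on naive arrays. 1451506_at had 691, 570 and 1406 on germinal center arrays, below all memory (2096 to 2685) and naive (2013 to 3757) arrays.

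By these 4 probe sets, plasma cells were not called apart from germinal center cells (0.52, -0.20, 0.21 and 0.14, in the order above, adjusted p from 0.42 to 0.802), so the fall of Mef2c between these subsets rests on the brightest probe set. Against naive cells all 5 probe sets were called lower in plasma cells, by -0.82 to -1.95. Memory over germinal center was called higher by 3 of the 4 (1.27, 1.5 and 1.02, adjusted p = 0.0306, 0.00175 and 0.00264) and not by the brightest (0.07) or by 1421028_a_at (0.65, adjusted p = 0.105).

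With the actin ratio in the fit, an analysis chosen after the values were seen, 1451506_at was at -0.98 for germinal center over naive cells, while 1421027_a_at, 1451507_at and 1421028_a_at were at -2.04, -0.93 and -0.87, near their values without the ratio. None of the 4 passed in that fit (adjusted p from 0.108 to 0.412). Without germinal center replicate 1, which had the lowest value for 1421027_a_at, the 4, in the order first given, were at -1.31, -1.62, -1.06 and -0.66, and 3 of the 4 passed (adjusted p = 4.45e-05, 0.00602 and 0.0123, against 0.131 for 1421028_a_at). Which transcripts or which end of the transcript each probe set covers is not given in the sources used here. The 5 genes nearest to the brightest Mef2c probe set were Stag2 (0.19), Sh3kbp1 (0.21), Vezf1 (0.21), Tnfrsf13c (0.22) and Mettl14 (0.22), of which 0 remained without the plasma arrays.

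**Figure D2:**
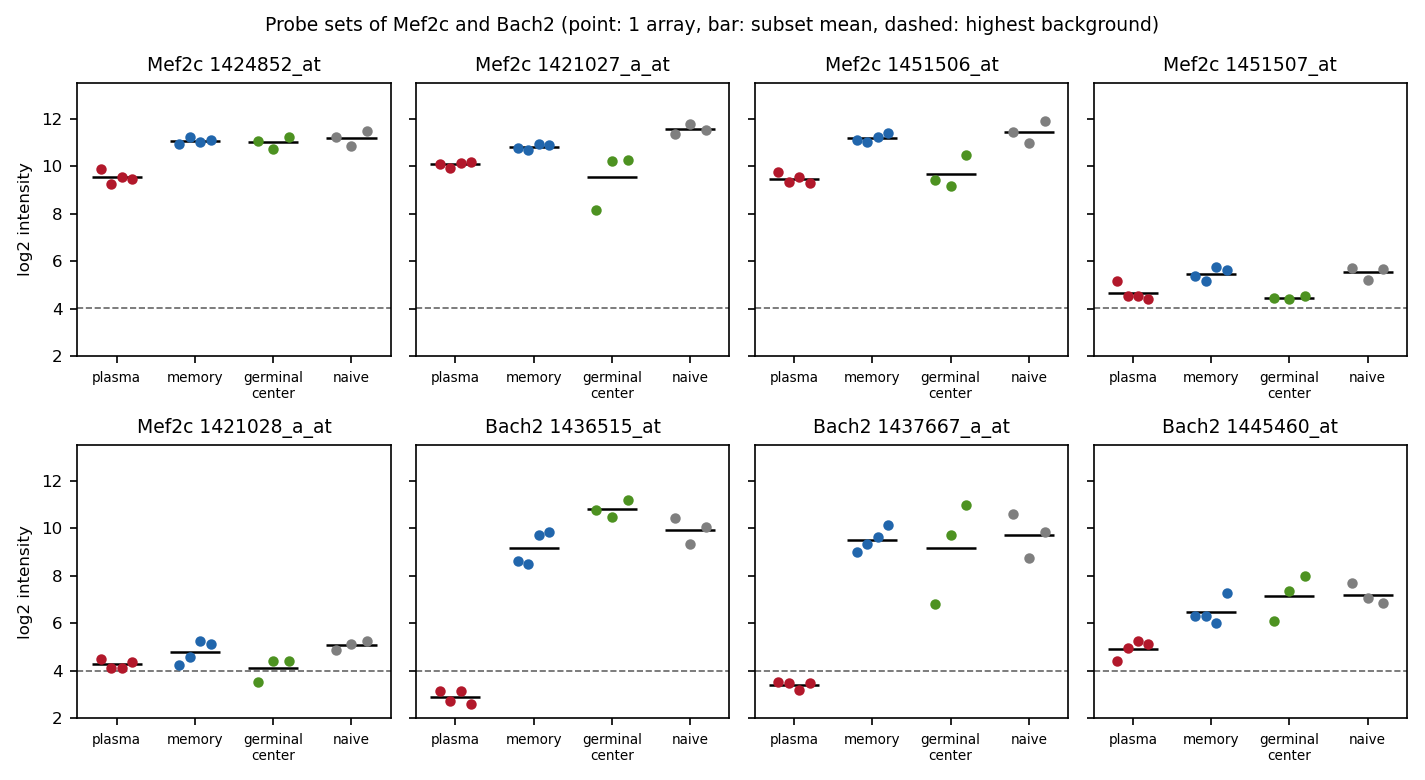
Log2 intensity (vertical axis) of the 5 Mef2c and 3 Bach2 probe sets on plasma, memory, germinal center and naive arrays (1 point per array, bar at the subset mean, dashed line at the highest array background). On germinal center arrays the brightest Mef2c probe set, 1424852_at, is level with memory and naive arrays, while 1421027_a_at and 1451506_at are lower, and the 3 Bach2 probe sets all have their lowest values on plasma arrays.

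Myc (1424942_a_at, its 1 probe set) had 69.5, 87.6, 58.4 and 58.0 on plasma arrays and 212, 303, 209 and 416 on memory arrays. It had 106, 117 and 253 on germinal center arrays and 178, 224 and 157 on naive arrays. Plasma arrays were below all others. Memory arrays overlapped with both germinal center and naive arrays, and germinal center array 3 was above all naive arrays while arrays 1 and 2 were below them.

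Myc was lower in plasma cells by -2.02 ± 0.28 against memory (adjusted p = 4.95e-05), -1.45 ± 0.30 against naive (0.00192) and -1.12 ± 0.30 against germinal center cells (0.0143). The last was lost without germinal center replicate 3 (-0.72, adjusted p = 0.075). Memory over germinal center was 0.91 ± 0.30 (adjusted p = 0.0458), a call that held in 6 of 12 alternatives and in 4 of 14 fits without 1 array. With the actin ratio in the fit the difference was -0.07 (adjusted p = 0.965). Germinal center over naive was -0.33 ± 0.32 (adjusted p = 0.536) and memory over naive 0.57 ± 0.30 (adjusted p = 0.368). The 5 genes nearest to Myc were B4galt5 (0.33) and, at 0.38 each, Ptpn1, Ttll3, Micu3 and Tcf20, of which 0 remained without the plasma arrays.

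**Figure D3:**
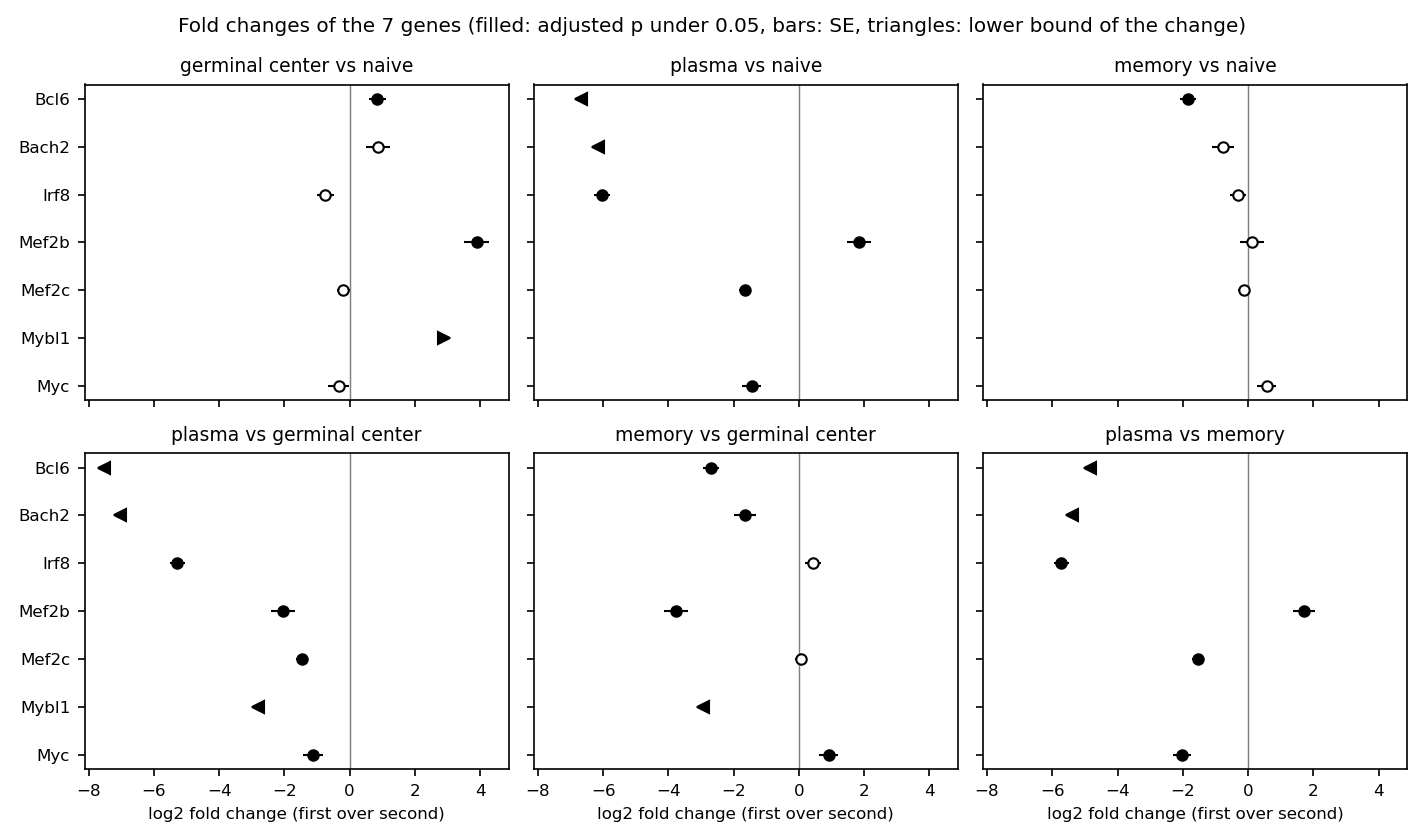
Log2 fold change (horizontal axis, first subset over second, bars show the standard error) of the 7 genes in the 6 comparisons, with filled points at an adjusted p under 0.05. Triangles are bounds, drawn where the lower subset was above background on no array, and no point is drawn for Mybl1 where both subsets were below background. The 3 comparisons with plasma cells hold the largest falls, with bounds of -4.83 to -7.53 for Bcl6 and Bach2 and -5.28 to -6.03 for Irf8, and Mef2b alone lies to the right in plasma over naive and plasma over memory cells.

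The partners, paralogs and reported targets of the 7 genes were followed in 10 lists. The listed plasma cell regulators were called higher in plasma than in naive cells for 8 of 8 genes, beside 14.2% of all genes (median 3.32, beside 0.06 over all genes). They were chosen with earlier results of these data known, and whether each opposes Bcl6 or Bach2 was not tested. Prdm1 averaged 521 on plasma, 20.2 on memory, 10.9 on germinal center and 10.9 on naive arrays. It was above background on 0 of 3 germinal center and 1 of 3 naive arrays, and at least 36.8-fold higher in plasma than in germinal center cells (adjusted p = 2.2e-10). Irf4, which drives plasma cells at high level, averaged 3358, 592, 66.7 and 736 in the same order, and fell in germinal center cells by -3.46 ± 0.33 against naive cells (adjusted p = 3.2e-06). Xbp1, the factor of the secretory apparatus, was higher in plasma than in germinal center cells by 2.57 ± 0.27 (6.32e-06), while germinal center over naive was 0.01 ± 0.29. Zbtb20 was the exception, lower in plasma than in memory cells by -2.96 ± 0.34 (8.34e-06) and than in germinal center cells by -1.71 ± 0.37 (0.00311).

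Of 22 genes reported as repressed by Bcl6, 19 were measured. In germinal center over naive cells 2 were called higher and 9 lower, beside 8.37% and 11.1% of all genes (median -0.09, beside 0.06). In memory over germinal center cells 10 were higher and 1 lower, beside 22.4% of all genes in either direction (median 1.28, beside -0.08). With the actin ratio in the fit, 8 and 9 of the 19 were called in these comparisons, beside 8.46% and 9.78% of all genes. Gpr183, which guides B cells out of the follicle, had the largest fall in germinal center cells, -5.68 ± 0.23 against naive cells (adjusted p = 6.05e-10), and was higher in memory than in germinal center cells by 5.99 ± 0.21 (2.14e-10). Bcl2, which blocks cell death, fell by 4.20 ± 0.46 on the log2 scale against naive cells (1.15e-05), and the cell cycle inhibitor Cdkn1b by 3.13 ± 0.40 (5.29e-05). Chek1, the checkpoint kinase, went the other way, 5.32 ± 0.20 higher in germinal center cells (3.97e-10). Id2 was also higher, at least 3.81-fold (0.000216). In plasma over naive cells, where Bcl6 was below background, 10 were called higher and 7 lower, beside 14.2% and 16.1% of all genes. The median was 0.93, or 0.67 with genes below background at their bound and those below it in both subsets at 0. Cd80, a costimulatory ligand, was above background on memory arrays alone, at least 5.16-fold higher than in naive cells (3.8e-08). Of the 8 measured corepressors and partners of Bcl6, 1 was called higher (Ctbp1) and 3 lower in plasma over germinal center cells, beside 11.2% and 12.6% of all genes. In germinal center over naive cells 0 of the 8 were called. Mta3, among those lower in plasma cells, averaged 17.4 on plasma, 566 on memory, 410 on germinal center and 571 on naive arrays. Its plasma over germinal center difference was -4.56 ± 0.21 (adjusted p = 1.18e-09).

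In the Bach list of 11 genes, Bach1, the paralog of Bach2, averaged 326 on plasma, 302 on memory, 102 on germinal center and 474 on naive arrays. It was lower in germinal center than in naive cells (-2.21 ± 0.30, adjusted p = 8.32e-05). The small Maf gene Mafk fell in plasma over naive cells (-0.80 ± 0.19, adjusted p = 0.00496). Hmox1, a classical target of Bach repressors, was at background (above it on 2 of 14 arrays) and gave no level to compare. In plasma over memory cells 2 of the 11 genes were called higher and 2 lower, beside 33.2% of all genes in either direction. Those higher were Prdm1 and Gclm, a subunit of the enzyme that makes glutathione, beside 17.2% of all genes. Those lower were Nfe2l2 and Fth1. Both were also called lower in plasma over naive cells, and Fth1 in plasma over germinal center cells.

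Of the 12 partners of Irf8 and interferon regulatory factors, 0 were called higher and 6 lower in germinal center over naive cells, beside 8.37% and 11.1% of all genes (median -0.67, beside 0.06), against 1 and 6 at an unadjusted p under 0.05 in limma. The 6 called lower were Irf1, Irf2, Irf3, Irf4, Irf5 and Irf9, and 3 calls were left with the actin ratio in the fit, beside 8.46% of all genes. In plasma over naive cells 9 were called lower and only Irf4 higher, beside 16.1% and 14.2% of all genes (median -1.25, beside 0.06). Spib, a partner of the PU.1 family, averaged 12.3 on plasma, 1741 on memory, 1165 on germinal center and 1695 on naive arrays, and its plasma over naive difference was -7.10 ± 0.28 (adjusted p = 2.16e-10). Spi1, which encodes PU.1, differed far less (-0.46 ± 0.16, adjusted p = 0.0413), a call lost in 6 of 12 alternatives and in 7 of 14 fits without 1 array.

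Another list held 10 genes, the paralogs of the Mef2 family, class II deacetylases and other partners. In it, Mef2a averaged 232 on plasma, 277 on memory, 173 on germinal center and 336 on naive arrays, with no call in any comparison. Mef2d averaged 147, 277, 155 and 188 in the same order. It was called lower in plasma than in memory cells (-0.92 ± 0.24, adjusted p = 0.00796), but the mean over its probe sets gave 0.10 (adjusted p = 0.57). Hdac9, a deacetylase that binds and represses Mef2 factors, was lower in memory than in germinal center cells (-1.64 ± 0.45, adjusted p = 0.0163, but 0.0656 without germinal center replicate 3). It was also lower in plasma than in germinal center cells (-3.27 ± 0.45, adjusted p = 6.67e-05). Of the 10 genes, 2 were called higher and 2 lower in memory over germinal center cells, beside 22.4% of all genes in either direction. In plasma over germinal center cells 1 was higher and 4 lower, beside 11.2% and 12.6% of all genes. Hdac5 was called higher in both comparisons, while Hdac7 was lower in the first and Hdac4 in the second. Hdac7 was called higher in plasma over naive and over memory cells.

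Of 8 genes of the Myb family and its MuvB complex, Myb, Mybl2 and Rbbp4 were called higher in germinal center over naive cells and 0 lower, beside 8.37% and 11.1% of all genes (median 0.64, beside 0.06), against 5 and 0 at an unadjusted p under 0.05 in limma. Unlike Mybl1, both Myb paralogs were present in plasma cells. Mybl2, which acts in the cell cycle, averaged 44.5 on plasma, 8.67 on memory, 46.9 on germinal center and 7.43 on naive arrays, and was at least 3.43-fold higher in plasma than in naive cells (adjusted p = 9.95e-06). Myb averaged 58.2 on plasma, 11.2 on memory, 95.1 on germinal center and 23.6 on naive arrays. It was lower in memory than in naive cells (-1.07 ± 0.26, adjusted p = 0.0274), a call that was lost in 4 of 12 alternatives, such as the mean over probe sets (-0.58, adjusted p = 0.0863) and a floor of 16 (-0.59, adjusted p = 0.324), and in 4 of 14 fits without 1 array.

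In the Myc and Max network of 11 genes, the brightest Max probe set was above background on 2 of 14 arrays, so Max gave no level to compare. Mxd3, an antagonist of Myc that appears in dividing cells, averaged 56.1 on plasma, 26.3 on memory, 152 on germinal center and 27.5 on naive arrays, and was higher in germinal center than in naive cells by 2.47 ± 0.21 (adjusted p = 1.2e-06). Mxi1, another antagonist, was lower in germinal center than in naive cells (-1.71 ± 0.17, 4.62e-06) and higher in plasma than in naive cells (1.02 ± 0.16, 0.000166). Mxd4 was higher in plasma than in memory cells by 1.39 ± 0.21 (1e-04). In that comparison 4 of the 11 genes were called higher (Mxd3, Mxd4, Mxi1 and Mlx) and 3 lower (Mnt, Mga and Mlxip). The share of all genes called in either direction was 33.2%. The same genes were called in the same directions in plasma over naive cells, beside 30.3% of all genes. Mnt averaged 160 on plasma and 377 on memory arrays, and Mga 37.8 and 290.

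Of 24 genes reported as activated by Myc, 14 were called higher and 0 lower in plasma over memory cells, beside 33.2% of all genes in either direction (median 0.82, beside 0.08), while Myc itself was lower. At an unadjusted p under 0.05 in limma, 16 were higher and 0 lower. Srm, which makes spermidine, averaged 2794 on plasma, 244 on memory, 198 on germinal center and 307 on naive arrays and rose by 3.52 ± 0.18 in plasma over memory cells (adjusted p = 2.69e-09). In germinal center over naive cells 5 were higher and 2 lower, beside 8.37% and 11.1% of all genes (median -0.04, beside 0.06), and 4 were called without naive replicate 1. With the actin ratio in the fit 2 of the 24 were called, near the 8.46% over all genes. Of the 17 measured other germinal center regulators, 5 were higher and 3 lower in germinal center over naive cells, beside 8.37% and 11.1% of all genes (median 0.03, beside 0.06). Among them was S1pr2, the receptor that retains cells in the follicle, at 4.39 ± 0.24 (1.34e-08). In plasma over germinal center cells 1 was higher and 11 lower, beside 11.2% and 12.6% of all genes (median -1.36, beside -0.02).

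**Figure D4:**
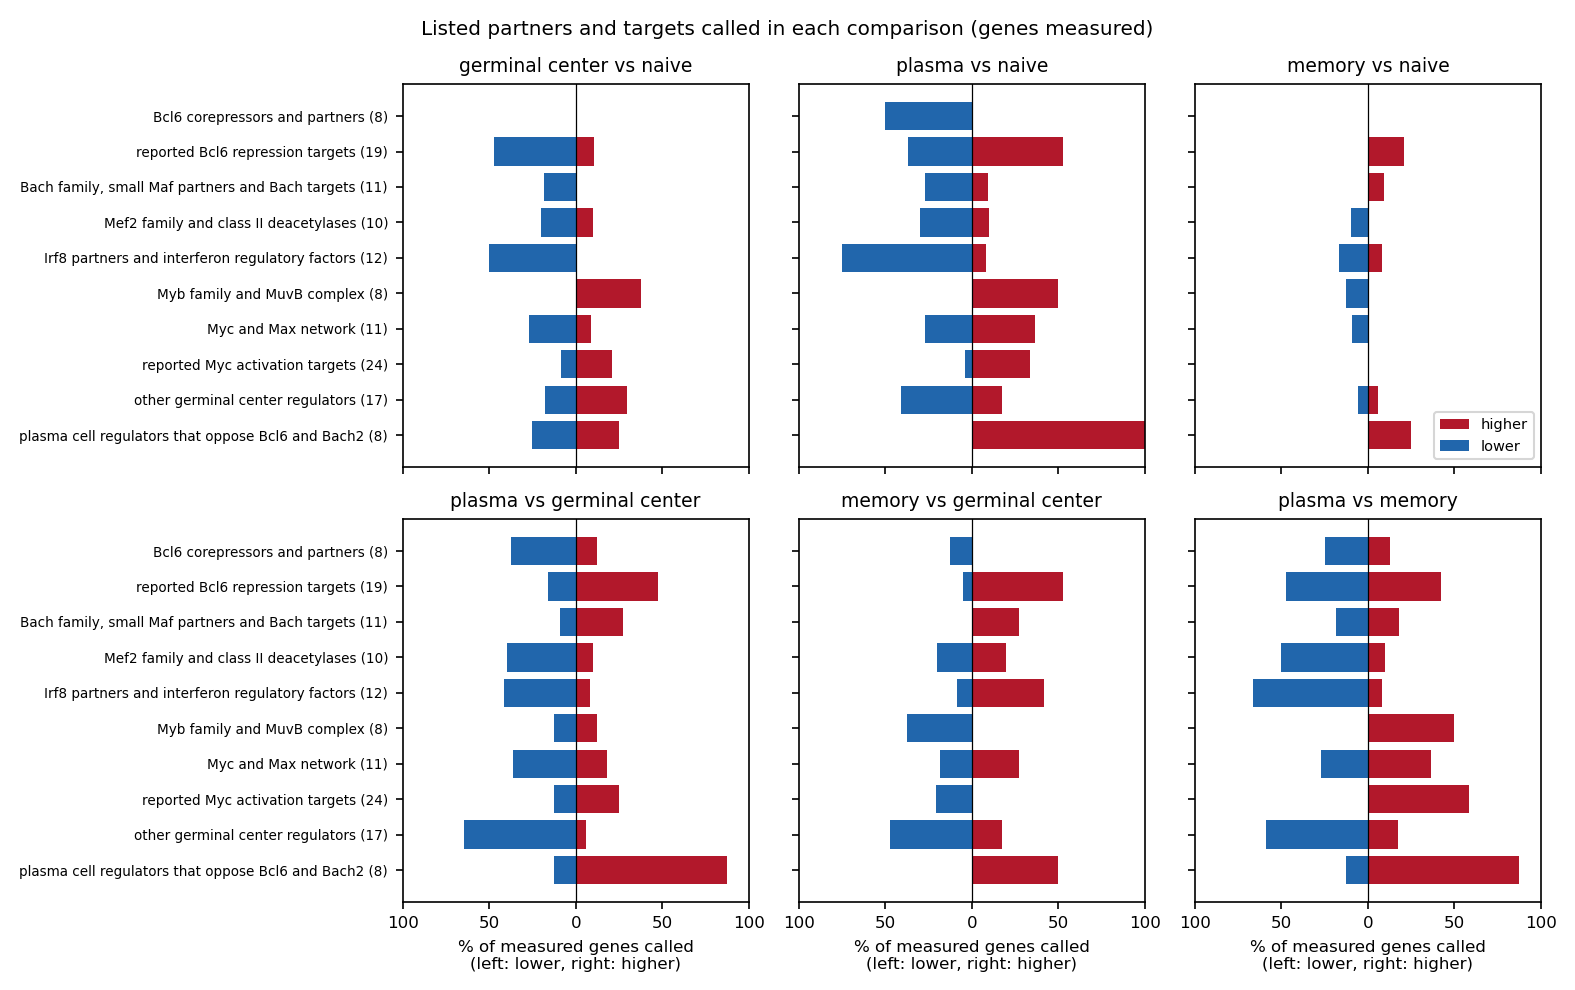
Share of the measured genes of each of 10 lists (horizontal axis, percent) called higher (right) or lower (left) in each of the 6 comparisons, with the number measured in parentheses. The plasma cell regulators reach 8 of 8 higher in plasma over naive cells, and the Irf8 partners are mostly lower in plasma over naive cells, with 9 of 12.

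**Figure D5:**
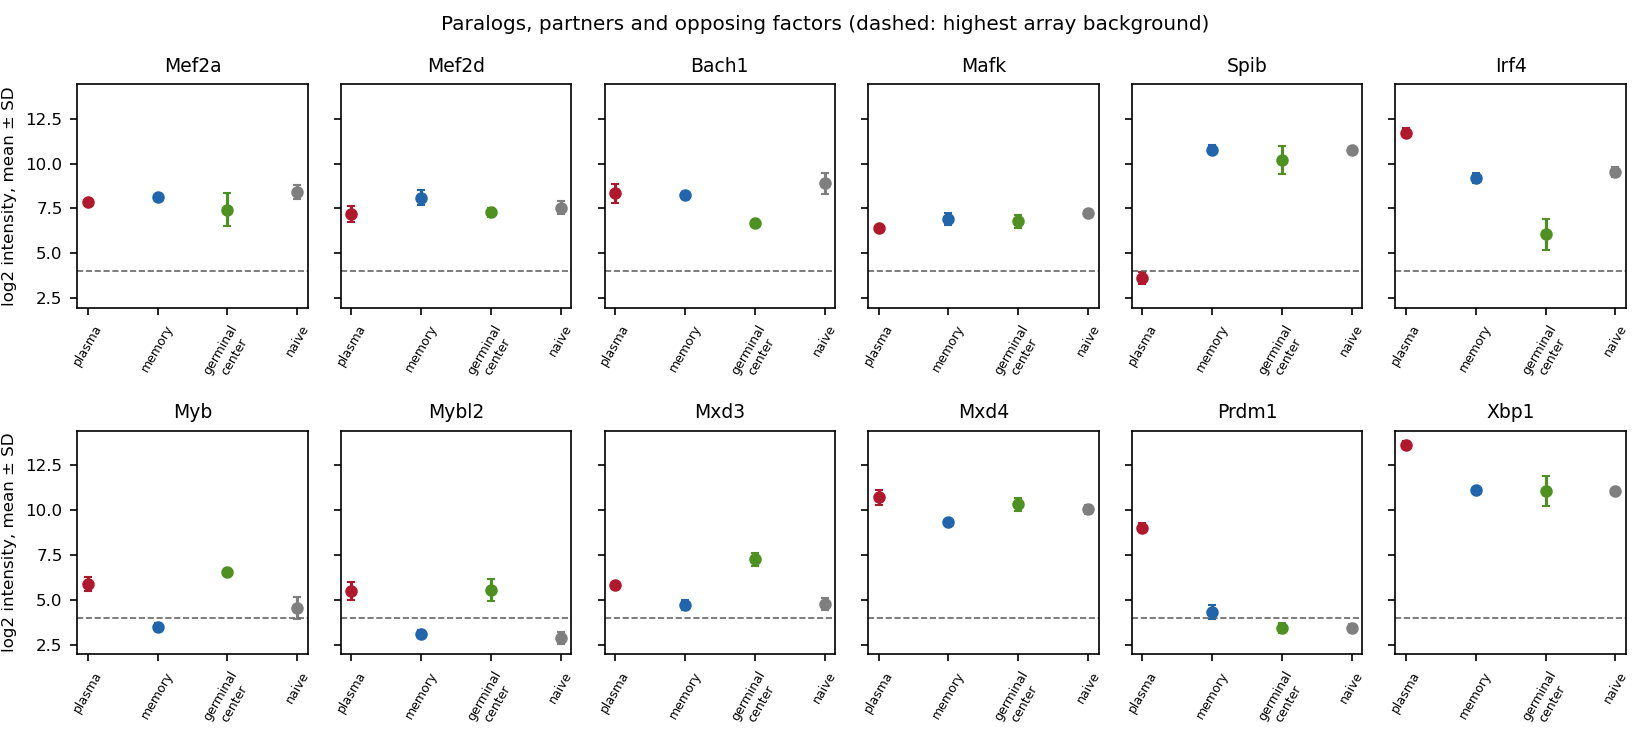
Mean log2 intensity with SD (vertical axis) of 12 partners, paralogs and opposing factors on plasma, memory, germinal center and naive arrays, with the highest array background dashed. Spib is at background on plasma arrays with a mean of 12.3, Bach1 is lowest on germinal center arrays with 102, and Prdm1 is highest on plasma arrays with 521.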

How the data were processed

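Gene expression was measured on 14 Affymetrix arrays of sorted mouse splenic B cells. The authors deposited 1 linear intensity per probe set and array, made with RMA per the submitters' processing notes. Its version, the chip definition and the genome build are not given in the sources used here. All deposited intensities lay above 0. Their log2 was used as it stood, without pseudocount or rescaling. The number of arrays limits the precision.

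The table holds 45101 probe sets, of which 64 are controls, 34945 carry 1 gene symbol, 932 several and 9160 none. A gene was read from its brightest probe set by mean over all arrays. Each gene's log2 values were modelled by subset over the 14 arrays (limma 3.58.1, R 4.3.3, 10 residual degrees of freedom), and the variances moderated with eBayes. Tests were two-sided, and p-values were adjusted by Benjamini-Hochberg over 18193 genes within each of 6 comparisons (over all probe sets that are not controls where other probe sets are named). Where the lower subset was above background on no array, a fold is given as "at least".

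The members and lists were chosen with earlier results of these data known. Named are the members, their paralogs, partners and opposing factors, up to 4 called genes of largest change per list, comparison and direction, and the 5 genes nearest to each member. Among the targets and partners, Cd80, Spi1 and Gclm were named after their values were seen, as were the single markers of other cell types. The fits of the Mef2c probe sets with the actin ratio and without germinal center replicate 1 were chosen after the values were seen. Alternatives covered normalization, floor, filter, probe set choice, variance model, arrays, RNA integrity and replicate block. Data were simulated with 18193 genes, of which 200 were shifted in plasma cells alone, fewer than were called in any comparison here. For plasma over naive cells, 71% of genes changed by 1 in log2 and 98% of those changed by 2 were recovered, with 11 false calls. No shift was simulated between germinal center and naive cells, so recovery in that comparison was not measured. Promoters were searched with Python 3.11.15, and figures drawn with matplotlib 3.10.9 and pandas 2.3.3.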

Additional observations from a re-analysis of the deposited data

How the results depend on the processing

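Across 12 alternatives and 14 fits that left out 1 array each, Bcl6, Bach2 and Irf8 were called lower in plasma than in naive, memory and germinal center cells, Mef2b and Mybl1 higher in germinal center than in naive cells, and Bcl6 lower in memory than in naive cells. The number of all genes called in memory over naive cells was 596 with a floor of 16 (against 1014) and 603 to 1273 without 1 array (603 without naive replicate 2, 624 without naive replicate 3). With the actin ratio as a covariate, 1540 genes were called in germinal center over naive cells (against 3542) and 1779 in memory over germinal center cells (against 4084), and the cause was not tested. That covariate also turned the sign of Mef2c (0.12) and Myc (0.59) in germinal center over naive cells, and of Irf8 (-0.26), Mef2c (-0.26) and Myc (-0.07) in memory over germinal center cells, none of them past the threshold. With the mean over probe sets, 5 members instead of 3 were called in germinal center over naive cells, Irf8 (-0.60) and Mef2c (-1.19, adjusted p = 0.00046) in addition. Mef2c was then -0.16 in plasma over germinal center cells (adjusted p = 0.609) and 0.90 in memory over germinal center cells (adjusted p = 0.00224), and Mef2d was 0.10 in plasma over memory cells.

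Small differences that were not called changed sign. In memory over naive cells these were Mef2c at 0.06 with arrays centred on bright genes, Mef2b at -0.03 with a floor of 16 and Mybl1 at -0.01 with the mean over probe sets. Without 1 array, memory over naive ranged from -0.14 to 0.51 for Mef2b, -0.09 to 0.38 for Mybl1 and -0.29 to 0.02 for Mef2c, with Mef2b at -0.01 without memory replicate 4 and Mybl1 at -0.02 without naive replicate 3. Memory over germinal center ranged from -0.07 to 0.17 for Mef2c. Without germinal center replicate 1, the Mef2c probe sets 1421027_a_at and 1421028_a_at were at -0.17 and -0.16 in plasma over germinal center cells.

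The share of called genes that were higher moved with scaling. In germinal center over naive cells it was 43%, but 30.2% with arrays centred on their median and 57.6% centred on bright genes. In plasma over naive cells the shares were 46.8%, 34.1% and 67.4%, and in memory over naive cells 41.5%, 33.8% and 68.2%, with 55.2% after quantile normalization.

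Replicate numbers did not pair the arrays. The deviations of 19 same-numbered pairs correlated from -0.32 to 0.25, and 3 of 14 arrays matched best an array of their own number. With the replicate number as a block (replicate block), 3412 genes were called in germinal center over naive and 5076 in plasma over naive cells, and among the 7 members only the Myc call in memory over germinal center cells was lost (0.84, adjusted p = 0.101). Genes below background, such as Mybl1 outside germinal center cells, have a bound only.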
